A study of Mus musculus with 12 samples.

Results

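Libraries of fibroblasts exposed to the estrogen receptor antagonist fulvestrant were compared with libraries that had none, whatever the estrogen level. The libraries of each side were set by the treatment label, while the comparison was chosen with earlier results of these data known. Of the 12 ATAC-seq libraries of the series, 6 carried fulvestrant in the label (3 of estradiol (E2) plus fulvestrant and 3 of fulvestrant) and 6 did not (3 of vehicle and 3 of E2). ATAC-seq uses a transposase to tag DNA that is not covered by nucleosomes, and the peaks of a library are the places where tags pile up above a local background. All cells were primary skeletal muscle fibroblasts of Aromhum mice, which carry the human aromatase gene, taken from the lower abdominal muscle. The E2 libraries received 10 nM E2, the E2 plus fulvestrant libraries 10 nM E2 and 100 nM fulvestrant, and the fulvestrant libraries 100 nM fulvestrant without E2. The vehicle libraries received ethanol and DMSO, and all libraries were given 1 hr of treatment per the labels. Per the methods of the study, fulvestrant or DMSO was given as a pretreatment of 3 hr before E2 or ethanol was added. Cells were harvested 1 hr after that addition. They were in serum-free medium and had been passaged once. Every group shares the Aromhum background, the serum-free medium and the passage. The labels do not say whether replicates came from separate mice or cultures, so all p-values measure only the spread between these samples, which may be technical.

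Estrogen receptor alpha, the product of Esr1, is a ligand-activated transcription factor that binds estrogen response elements (EREs), mostly far from promoters, and recruits coactivators that open chromatin. Fulvestrant is a steroidal ligand of the receptor without agonist activity, and cells that take it up lose receptor protein. Aromatase, the enzyme that the Aromhum mice carry, turns androgens into estrogens.

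The libraries varied widely on both sides. Between 28792 and 109449 peaks per library lay on chromosomes 1 to 19 and X, 647907 in all. The share of peaks with a q-value of 0.05 or less ran from 6.31% to 46.1%, so most listed peaks were weak. Relative depth, recovered as background tags per window, ran from 0.713 to 1.42 and was 1.14 ± 0.164 with fulvestrant and 0.984 ± 0.203 without (SD, n = 6 each, exact permutation p = 0.184). The 4 libraries of replicate number 1 stood apart: they had 22 to 36 peaks on chromosome Y against 854 to 1148 in the other 8, and each side of the comparison holds 2 of them. Values within replicate number 1 and within numbers 2 and 3 are therefore given beside the main differences in peaks, regions and loci. The study used male mice, and the labels give neither the animal nor the sex behind a library, so what the gap reflects was not tested. As a check of the labelled cell type, 13 of 15 fibroblast markers, such as Vim, Pdgfra and Col1a1, had a promoter peak in at least 5 libraries, against 3 of 8 myogenic, 2 of 6 adipocyte, 3 of 6 endothelial, 1 of 6 immune and 1 of 6 epithelial markers. Of all protein-coding genes 12111 of 21755 had one, and so had 15 of 15 heat shock and protein folding genes. A high share is thus not particular to fibroblast markers. Promoters of the muscle regulators Myod1 and Pax7 and of the fibroblast regulator Tcf21 were called in no library.

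The sequences of the regions that differed most in calls come first, because several of them are simple tandem repeats. Each is the reference sequence (GRCm38, plus strand) within 100 bp of the strongest summit of the region, in lower case, with capitals where one of 6 searched motifs occurs. The motifs, read on either strand, were the ERE (GGTCA and TGACC with 3 bases between), the glucocorticoid response element (AGAACA and TGTTCT with 3 bases between), AP-1 (TGANTCA), TEAD (GGAATG), SP/KLF (GGGCGG) and the CTCF core. The following 5 regions were called more often with fulvestrant:
Intergenic near Smad6, chr9:64065045-64065245: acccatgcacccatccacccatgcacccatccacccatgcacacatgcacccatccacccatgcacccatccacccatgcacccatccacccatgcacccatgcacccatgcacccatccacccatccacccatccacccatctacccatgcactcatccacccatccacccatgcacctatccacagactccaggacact
Intron of Arhgap18, chr10:26837710-26837910: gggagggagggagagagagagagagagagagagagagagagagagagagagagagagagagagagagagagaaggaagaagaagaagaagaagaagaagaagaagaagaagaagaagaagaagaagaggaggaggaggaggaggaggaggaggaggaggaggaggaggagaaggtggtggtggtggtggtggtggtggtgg
Intron of the lincRNA Gm45554, chr8:53448828-53449028: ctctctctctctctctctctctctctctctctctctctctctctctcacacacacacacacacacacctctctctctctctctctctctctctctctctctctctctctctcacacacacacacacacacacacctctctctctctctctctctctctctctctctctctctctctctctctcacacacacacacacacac
Intron of Tdrd1, chr19:56847530-56847730: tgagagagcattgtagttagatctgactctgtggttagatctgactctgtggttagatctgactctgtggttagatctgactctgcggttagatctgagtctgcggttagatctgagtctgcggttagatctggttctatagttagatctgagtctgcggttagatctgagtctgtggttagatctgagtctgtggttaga
Promoter of H2-Q1, chr17:35319699-35319899: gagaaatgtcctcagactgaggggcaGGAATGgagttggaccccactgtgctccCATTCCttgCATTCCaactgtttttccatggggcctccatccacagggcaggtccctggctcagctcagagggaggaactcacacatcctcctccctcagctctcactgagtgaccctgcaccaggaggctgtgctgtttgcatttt

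Of the regions called less often with fulvestrant, these 3 are shown as the region that separated all libraries, a region with a TEAD match and a region with a tandem repeat:
Intron of Gm5150, chr3:15958146-15958346: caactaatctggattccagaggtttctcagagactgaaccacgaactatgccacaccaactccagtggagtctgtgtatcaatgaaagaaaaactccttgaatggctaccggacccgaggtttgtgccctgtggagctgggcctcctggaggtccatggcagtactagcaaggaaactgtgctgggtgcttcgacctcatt
Intron of Cadm2, chr16:66961441-66961641: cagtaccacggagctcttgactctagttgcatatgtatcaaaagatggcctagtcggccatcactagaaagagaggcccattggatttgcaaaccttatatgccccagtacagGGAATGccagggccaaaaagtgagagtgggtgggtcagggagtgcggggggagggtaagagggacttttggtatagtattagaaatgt
Intron of Far2os2, chr6:148013346-148013546: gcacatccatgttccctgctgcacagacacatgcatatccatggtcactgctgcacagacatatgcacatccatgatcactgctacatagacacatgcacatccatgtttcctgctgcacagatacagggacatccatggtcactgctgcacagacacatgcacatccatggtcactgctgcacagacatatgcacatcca

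The first question was whether fulvestrant changed how much chromatin was listed as open. Libraries with fulvestrant had fewer peaks on average, 43594 ± 18795 against 64390 ± 29250 without it (SD, n = 6 each). With fulvestrant the lowest, median and highest library had 28792, 33814 and 73561 peaks, and without it 30505, 62286 and 109449, so the groups overlapped. On the log2 scale the difference was -0.53, which an exact permutation test over all assignments of labels did not separate from 0 (two-sided p = 0.167). In 5 of 6 pairs of the same replicate number and estrogen level the library with fulvestrant had fewer peaks. With labels exchanged only within these pairs, the log2 difference did not pass either (two-sided exact permutation p = 0.094). The log2 difference was -0.22 within replicate number 1 and -0.69 within numbers 2 and 3, and the vehicle library of number 2, with 109449 peaks, gave the widest pair at -1.83. Peaks covered 13.4 ± 7.41 Mb with fulvestrant and 19.1 ± 8.44 Mb without (exact permutation p = 0.229), a difference of -1.17 Mb within number 1 and -8.01 Mb within numbers 2 and 3. Without the fulvestrant library of number 1 or the vehicle library of number 2 the difference was -8.02 or -3.47 Mb, against -5.73 Mb with all.

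**Figure D1:**
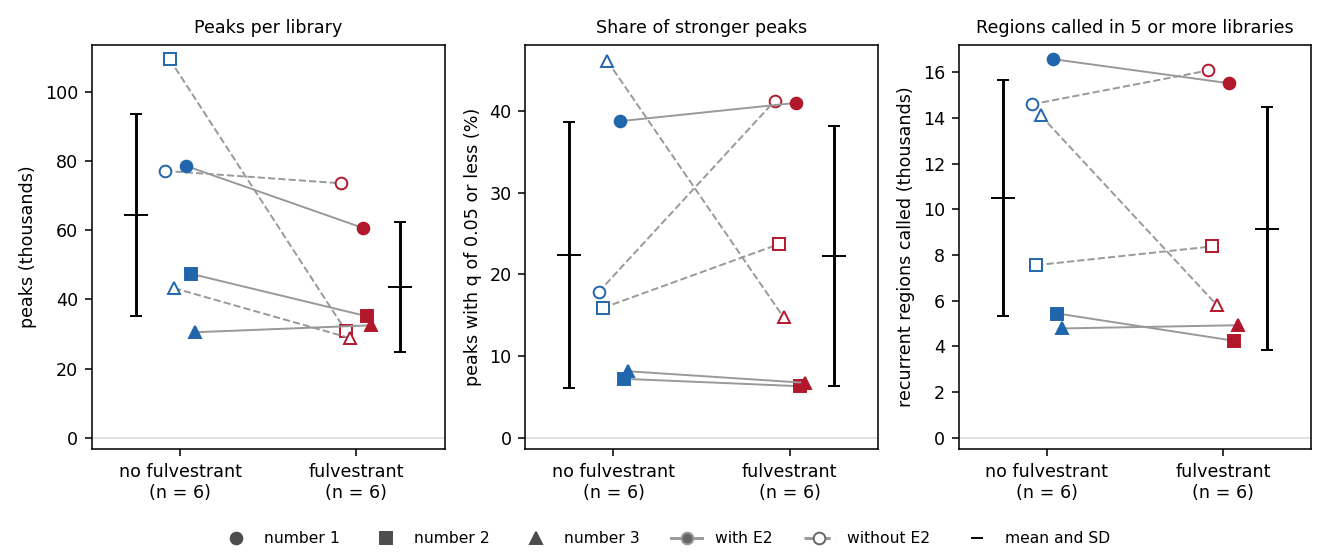
Peaks per library, the percent of peaks with q of 0.05 or less, and the number of recurrent regions (called in at least 5 libraries) called, for libraries without (blue) and with (red) fulvestrant. Lines join libraries of the same replicate number and estrogen level, and bars are mean and SD of 6. Peak number was lower with fulvestrant in 5 of 6 pairs, while the other 2 measures were lower in 3 of 6.

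The quality and position of peaks were compared next, and no difference passed the test. The share of peaks with q of 0.05 or less was 22.3% ± 15.9 with fulvestrant and 22.3% ± 16.3 without (exact permutation p = 0.996), a difference of 12.8 percentage points within number 1 and of -6.47 within numbers 2 and 3. Promoter peaks, with a summit within 3000 bp of a transcription start site, made up 27.4% ± 4.57 of the lists with fulvestrant and 26.0% ± 6.95 without (exact permutation p = 0.680). The share was lower with fulvestrant in 1 of 6 pairs, and the difference was 3.91 points for number 1 alone, 0.175 for the other numbers, and 0.131 and 3.78 without the vehicle libraries of numbers 2 and 3 in turn. Lists of the same fulvestrant status were on average no more alike than lists of different status, in a comparison that did not hold replicate number fixed. The mean base-pair Jaccard index, the shared length over the length covered by either list, was 0.0632 in 30 pairs of the same status and 0.0703 in 36 pairs of different status (one-sided exact permutation p = 0.788). Pairs with the same replicate number, with 0.0892 in 18 pairs, stood above pairs of different numbers, with 0.0588 in 48 pairs. This did not hold for every number. In pairs matched by number and estrogen level the index was 0.145 and 0.206 for number 1. It was 0.0374 and 0.0413 for number 2 and 0.0450 and 0.0516 for number 3. By the design, same-number pairs are a larger share of the pairs of different status, which the test of status did not take into account. The fulvestrant difference in log2 peak number was 0.59 higher with E2 than without it, which did not pass (exact permutation p = 0.40 over 20 arrangements, smallest possible 0.10). It was 0.09 without the vehicle library of number 2 and 0.97 without that of number 1.

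Motifs near the summits of distal peaks, those more than 3000 bp from a start site, had shares that did not differ by the test. An ERE was found in 0.0274% ± 0.0176 of distal peaks with fulvestrant and 0.0263% ± 0.0133 without, from 1 to 26 peaks per library. AP-1, the motif of FOS and JUN proteins, stood in 6.27% ± 1.34 against 6.88% ± 2.44. It was lower with fulvestrant in 1 of 6 pairs, and without the vehicle library of number 3, at 11.5%, the difference was 0.324 percentage points. TEAD, the partner of YAP, stood in 11.1% ± 0.559 against 11.5% ± 1.31. SP/KLF stood in 3.95% ± 0.750 against 3.88% ± 1.03, CTCF in 0.239% ± 0.218 against 0.264% ± 0.237 and the glucocorticoid response element in 0.0043% ± 0.0055 against 0.0060% ± 0.0029 (SD, n = 6 each). The unadjusted p ran from 0.517 to 0.907, and all 6 had an adjusted p of 0.907 by exact permutation with Benjamini-Hochberg adjustment over the motifs. AP-1 was 0.961 percentage points higher with fulvestrant within number 1 and differed by -1.39 within numbers 2 and 3. The GC content of the same windows was 48.8% ± 0.920 with fulvestrant and 48.7% ± 0.599 without.

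Merging the peaks of all libraries where they overlapped or touched gave 431930 regions, of which 336761 were called in 1 library only. On the side with fulvestrant only, 132838 regions were called, 125131 of them in a single library. On the side without it only, 230791 were called, 211630 of them in a single library. A region called in a single library falls on 1 side by construction. The other 68301 were called on both sides. The 18689 regions called in at least 5 libraries, named recurrent here, were tested, since 5 calling libraries is the fewest with which a region can pass. Among them 3832 were called in more libraries with fulvestrant, 9883 in fewer and 4974 in equal numbers. On average a recurrent region was called in 2.94 of 6 libraries with fulvestrant and 3.37 of 6 without, a difference of -0.43 (exact permutation p = 0.706). Libraries with fulvestrant called 212.5 more recurrent regions on average within number 1, and the difference was -2131 within numbers 2 and 3. The libraries of number 1 called 14592 to 16570 recurrent regions and the vehicle library of number 3 called 14107, against 4247 to 8374 in the others. In 6152 regions 2 libraries with fulvestrant and 3 without made the call, against 1269 regions with 3 and 2. How far the vehicle library of number 3 sets the majority called in fewer was not tested.

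**Figure D2:**
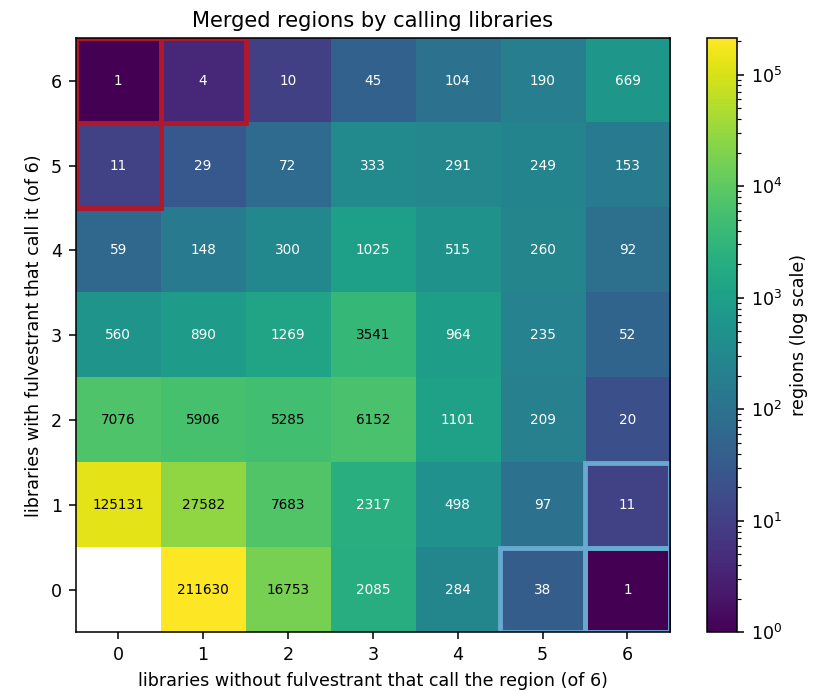
Number of merged regions for each combination of calling libraries, with the libraries without fulvestrant on the horizontal axis and those with it on the vertical axis, coloured on a log scale. Frames mark the combinations that pass an unadjusted exact permutation p of 0.05, with 16 regions at the upper left (red) and 50 at the lower right (blue).

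At an unadjusted exact permutation p under 0.05, 16 regions were called more often with fulvestrant, 0.0856% of those tested, and 50 less often, 0.268%. A pass needs 6 libraries against 0 (exact permutation p = 0.00216), or 5 against 0 or 6 against 1 (exact permutation p = 0.0152). In each direction 1 region separated all 12 libraries, 11 regions were called in 5 and 0 libraries and 4 in 6 and 1 in favour of fulvestrant, and 38 and 11 in the other direction. Just outside, at an exact permutation p of 0.0606, lay 10 regions called in 6 libraries with fulvestrant and 2 without, and 20 with 2 and 6. Regions called in 4 and 0 libraries (59) or 0 and 4 (284) have the same p but too few calls to be among those tested. None passed Benjamini-Hochberg adjustment over the recurrent regions (smallest adjusted p = 1.0 by the exact permutation test). When the labels were assigned in all possible ways, 390 assignments gave at least as many as the 66 regions found here (one-sided exact permutation p = 0.422), with a median of 58 and a range of 28 to 8422. By direction the 16 and 50 regions stood beside a median of 24 (one-sided exact permutation p = 0.706 and 0.224). With labels exchanged only within replicate number and estrogen level, 14 of 64 assignments gave at least 66 regions (one-sided exact permutation p = 0.219), with a median of 51 and a range of 28 to 125. Within numbers 2 and 3, where 4 libraries stood against 4, 15 regions were called more often and 51 less often. Without 1 library at a time the counts ran from 20 to 50 and from 58 to 255, the last without the vehicle library of number 3. A test of 11 libraries passes with fewer calls than a test of 12.

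**Figure D3:**
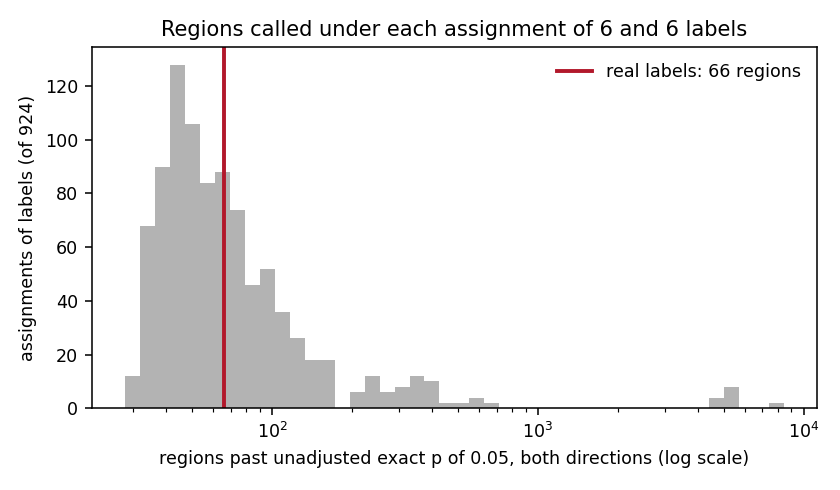
Number of regions past an unadjusted exact permutation p of 0.05 in either direction (horizontal axis, log scale) under each assignment of 6 fulvestrant and 6 other labels. The red line at 66 marks the real labels, near the median of 58.

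The region that best separated the groups in favour of fulvestrant was chr9:64064874-64065659, 786 bp between genes, 15316 bp from the start site of the lincRNA 1110036E04Rik and 43086 bp from that of Smad6, the nearest coding gene, which encodes an inhibitor of BMP signalling. Its peaks had a −log10 p of 2.14, 4.84 and 2.79 in the E2 plus fulvestrant libraries and of 4.92, 4.21 and 3.51 in the fulvestrant libraries. No library without fulvestrant called it. The peaks were weak, with a fold enrichment of 2.29 to 3.78, and 1 of 6 had q of 0.05 or less. Its sequence repeats the unit printed above, and 85.9% of the bases in the window equal the base 16 positions on.

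The next 5 regions were called by 5 or 6 libraries with fulvestrant and by at most 1 without. Tandem repeats filled the windows of 3 of them. In the intron of Arhgap18 (chr10:26837696-26838071), which encodes a GTPase-activating protein, the −log10 p was 4.66 to 15.9 in the 6 libraries with fulvestrant. The E2 library of number 2 called it as well, at 15.2. The window is a purine repeat in which 92.3% of bases matched those 6 positions on. The intron of Gm45554 (chr8:53448730-53449130) holds a CT and CA repeat with 96.5% matching at 2 positions and was called in 5 libraries with fulvestrant and none without. The intron of Tdrd1 (chr19:56847460-56848408), a germ line gene of the piRNA pathway, holds an 18 bp repeat with 88.0% matching. It was called in all 6 libraries with fulvestrant and, at a −log10 p of 7.10, in the E2 library of number 2.

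An intron of Phf21a, which encodes a subunit of a histone demethylase complex, held a region that all 6 libraries with fulvestrant called at a −log10 p of 3.56 to 11.3. Of those without, the E2 library of number 2 called it, at 4.58. Its window ends in a 6 bp tandem repeat, with 35.8% of bases marked as repeat and 51.3% matching those 6 positions on. The promoter of H2-Q1 (chr17:35319621-35320070, 606 bp from the start site), a class I major histocompatibility gene, had no base marked as repeat in its window, which holds 3 TEAD matches. It was called in 5 libraries with fulvestrant, at 3.36 to 7.20, and in none without. H2-Q1 lies in a cluster of similar genes, and whether reads came from its relatives was not tested.

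In the other direction, chr3:15957113-15958382, 1270 bp in an intron of Gm5150, was called in all 6 libraries without fulvestrant and none with it. The −log10 p was 3.92, 2.85 and 4.94 in the vehicle libraries and 5.17, 2.20 and 3.05 in the E2 libraries, with a fold enrichment of 2.33 to 3.99. An intron of Cadm2 (chr16:66961451-66961679), which encodes a synaptic adhesion molecule, was called in 5 libraries without fulvestrant at 4.69 to 7.04. All 5 of these peaks had q of 0.05 or less. Its window holds 1 TEAD match and no tandem repeat, but 91.0% of its bases are marked as repeat. The region chr14:41966007-41966859 in an intron of Gm6401 was called in 6 libraries without fulvestrant and in the E2 plus fulvestrant library of number 1. An intron of Far2os2 (chr6:148013312-148014084) was called in 5 libraries without fulvestrant, and 85.8% of its window matched at 32 positions. The last 2 named regions, at chr18:26216519-26217214 (nearest coding gene Celf4, 462712 bp away) and chr12:19066067-19066563, were intergenic and were called in 5 libraries without fulvestrant and none with it.

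**Figure D4:**
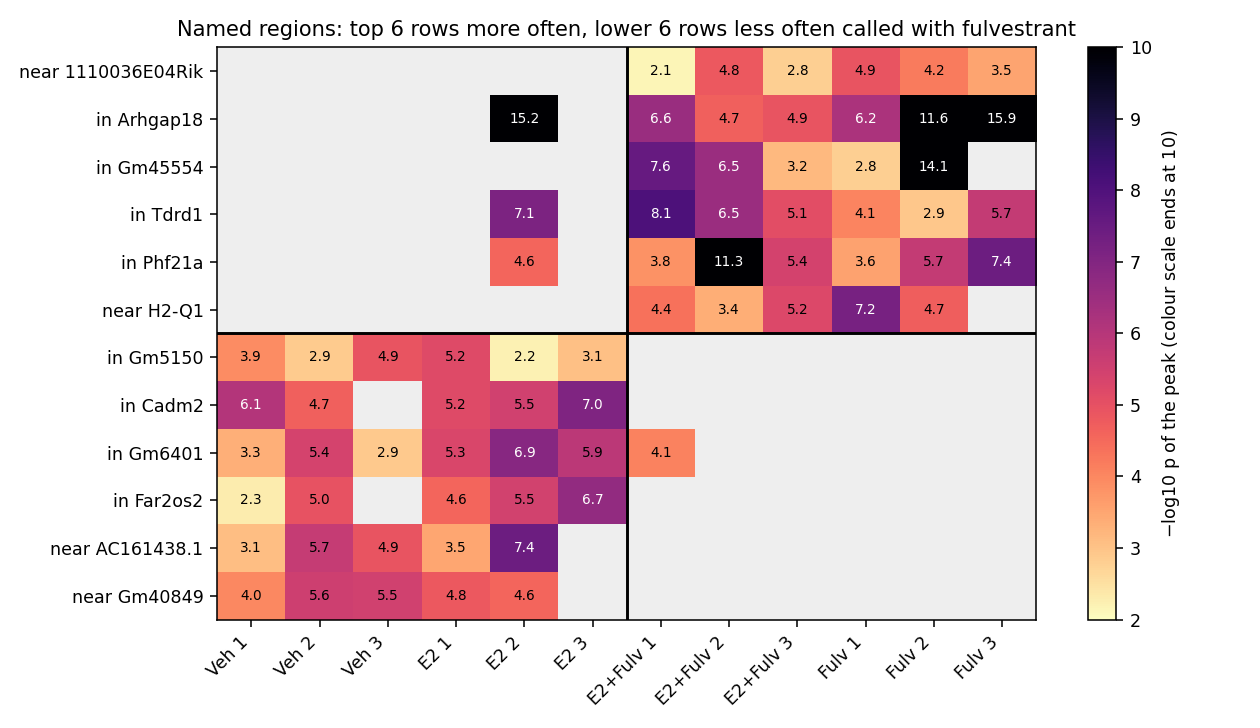
−log10 p of the strongest peak in each library (columns, 6 without and 6 with fulvestrant) for the 12 named regions (rows), labelled by the gene they lie in or the nearest start site, with grey where a library had no peak. The upper 6 rows are filled on the right and the lower 6 on the left, because that is how they were chosen, apart from 1 missing call in each region called in 5 libraries and 4 calls on the other side: the E2 library of number 2 in Arhgap18, Tdrd1 and Phf21a, and the E2 plus fulvestrant library of number 1 in Gm6401.

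The called regions were set beside the recurrent regions, and beside the 669 regions called in all 12 libraries, for repeat content and position. In 7 of the 16 regions called more often and 12 of the 50 called less often, at least 70% of the window matched itself at a shift of up to 60 bp, against 11.3% of all 18689 recurrent regions and 36.3% of the regions called in all 12. This measure and its threshold were chosen after the sequences had been seen. Bases marked as repeats in the reference made up over 50% of the window in 10 of 16 and 32 of 50 regions, against 24.8% of recurrent regions and 53.7% of those called in all 12. Promoters held 4 of the 16 and 3 of the 50, against 50.7% of recurrent regions. Of the distal regions, 8 and 20 were in introns and 4 and 24 between genes. At least 1 calling library had q of 0.05 or less in 14 of 16 and 45 of 50, against 95.7%. The SP/KLF motif was found in 1 and 2 of the windows and AP-1 in 1 and 2, against 30.5% and 6.79% of recurrent regions. TEAD was found in 2 of the 16 and 1 of the 50, against 9.01% of recurrent regions and 8.37% of those called in all 12. These shares describe the regions and were not tested. How reads that match many places were placed was not tested.

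No ERE lay within 100 bp of the summit of any of the 66 regions, a count of 0 that allows a share of up to 4.55%, counting error only. The search covered 100 bp on each side of the strongest summit and only full matches, so other elements in a region were not counted. By this search the ERE was found in 5 of all recurrent regions, or 0.0268%. All 5 are shown, with the element in capitals and 20 bases on each side (GRCm38, plus strand), each named by its nearest coding gene:
Med13l, chr5:118812991-118813043: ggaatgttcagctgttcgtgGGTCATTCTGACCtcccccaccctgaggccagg
Pgrmc2, chr3:41182801-41182853: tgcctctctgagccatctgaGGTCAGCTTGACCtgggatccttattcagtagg
Rybp, chr6:100060041-100060093: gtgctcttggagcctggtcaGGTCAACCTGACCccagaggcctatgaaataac
Nmnat2, chr1:153092150-153092202: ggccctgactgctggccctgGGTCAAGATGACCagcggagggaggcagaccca
Lpar1, chr4:58563550-58563602: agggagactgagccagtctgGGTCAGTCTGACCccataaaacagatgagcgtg

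The 5 ERE regions were called about equally on both sides. The region 62671 bp from Med13l, which encodes a subunit of the Mediator kinase module, was called in 3 libraries with fulvestrant and 3 without. Its −log10 p reached 31.0 in the E2 library of number 1 and 20.5 and 17.9 in the fulvestrant and E2 plus fulvestrant libraries of number 1. The regions nearest to Rybp and Lpar1 were each called in 3 libraries with fulvestrant and 2 without, and those nearest to Pgrmc2 and Nmnat2 in 2 and 3. The E2 and both fulvestrant libraries of number 1 called all 5. The median difference in calling libraries over the 5 regions was 0, against -1 over all recurrent regions.

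The promoters of protein-coding genes were tested next, to put the regions on named genes. A gene counted as called where a summit lay within 3000 bp of any of its start sites. Of 21755 genes, 12111 were called in at least 5 libraries. Promoters of 3 genes, 0.0248%, were called more often with fulvestrant and of 21 genes, 0.173%, less often, at an unadjusted exact permutation p under 0.05. None passed adjustment (smallest adjusted p = 1.0 by the exact permutation test), and 430 assignments of labels gave at least 24 genes (one-sided exact permutation p = 0.465). Within numbers 2 and 3 the counts were 4 and 62, and leaving out 1 library gave 3 to 12 and 24 to 88, the highest of both without the fulvestrant library of number 1. Over all 12111 genes, 2369 were called in more libraries with fulvestrant, 6687 in fewer and 3055 in equal numbers, with a median difference of -1. The libraries of number 1 called 12638 to 13761 genes and the vehicle library of number 3 called 11756, against 3759 to 9681 in the others.

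The 3 genes called more often were Ccdc27, Elfn2 and Coprs. Ccdc27 (chr4:154026639-154042677), a coiled-coil gene, had a promoter peak at a −log10 p of 3.66 to 6.49 in 5 libraries with fulvestrant and in none without. Elfn2 (chr15:78667331-78718771), a leucine-rich repeat membrane protein, had one in all 6 at 2.44 to 4.26 and in the vehicle library of number 2 at 3.93. Coprs (chr8:13884794-13890281), which binds the arginine methyltransferase PRMT5, had one in 5 libraries at 2.24 to 4.94.

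Of the genes called less often, Sycp2l and Cblc separated all libraries. Sycp2l (chr13:41114307-41174351), a germ cell gene, had promoter peaks in every library without fulvestrant, at a −log10 p of 5.0, 2.85 and 3.19 in the vehicle libraries and of 2.73, 3.73 and 2.47 in the E2 libraries. Cblc (chr7:19778881-19796809), an E3 ubiquitin ligase of the CBL family, had 3.73, 2.80 and 3.14 in the vehicle and 3.48, 3.47 and 3.27 in the E2 libraries. No library with fulvestrant had a peak at either. These peaks were weak in every library that held them.

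The centriole gene Ccp110 and the NKG2D ligand gene Raet1d were called in all 6 libraries without fulvestrant and, of those with it, in the fulvestrant library of number 1. The same library called Pax5, the B cell transcription factor, and the carboxylesterase gene Ces1e beside all 6 without fulvestrant. The bicarbonate transporter gene Slc4a8 and the odorant receptor gene Olfr631 were called in 6 libraries without fulvestrant and in the E2 plus fulvestrant library of number 1, and the zinc finger gene Zfp600 in 6 and in the fulvestrant library of number 2. Zfp978 was called in 5 and 0. Ccp110 had the strongest of these peaks, at a −log10 p of 9.08 in the E2 library of number 1. Olfr631, Zfp600 and Zfp978 belong to large gene families, and whether their peaks hold reads from other members was not tested. Outside the 10 named, and picked after its values were seen, was Oxtr, the oxytocin receptor gene, called in 5 libraries without fulvestrant at 2.33 to 4.87 and in none with it.

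Genes of estrogen signalling were named whatever their values. The promoter of Esr1 (chr10:4611593-5005614) was called in 3 libraries with fulvestrant and 4 without, that of Greb1 (chr12:16670615-16800886), a classical estrogen target, in 2 and 5 (exact permutation p = 0.242), and that of Pgr (chr9:8899833-8968611), the progesterone receptor gene, in 0 and 4. The Pgr promoter was listed in the vehicle libraries of numbers 1 and 2 at 3.0 and 3.74 and in the E2 libraries of numbers 1 and 3 at 3.49 and 5.05, and in no library with fulvestrant (exact permutation p = 0.0606). With 4 calling libraries it lies below the 5 needed to pass.

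Whole loci, from 50 kb upstream to the gene end, were counted after the promoters had been seen. Over the Greb1 locus of 180 kb the libraries with fulvestrant called 7, 6 and 2 regions (E2 plus fulvestrant, numbers 1 to 3) and 8, 8 and 6 (fulvestrant). Those without called 14, 12 and 8 (vehicle) and 14, 12 and 6 (E2). The number was lower with fulvestrant in all 6 pairs, 6.17 ± 2.23 against 11 ± 3.29 (SD, n = 6 each, exact permutation p = 0.0325, adjusted over the 3 loci 0.0974), although the groups overlapped from 6 to 8. The lists without fulvestrant are longer, and per 10000 regions called the Greb1 locus had a median of 1.44 with fulvestrant and 1.85 without, a difference of means of -0.30 that did not pass (exact permutation p = 0.424). The difference was -6.5 regions within number 1 and -4.0 within numbers 2 and 3. Most Greb1 regions were called in 1 library: 45 of 63. An intronic region of Greb1, chr12:16747718-16748017, was called in all 12 libraries at a −log10 p of 17.8 to 112, with a median fold enrichment of 20.2. Bases marked as repeat made up 51.7% of its window, and 60.5% of bases matched those 6 positions on.

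The Esr1 locus had 8.17 ± 3.31 regions with fulvestrant and 12.8 ± 8.93 without (exact permutation p = 0.301). The difference was -3.0 within number 1 and -5.5 within numbers 2 and 3, and it went from -4.67 to -1.43 without the vehicle library of number 2. Per 10000 regions called the sign turned, with a difference of 0.123 (exact permutation p = 0.846). The Pgr locus had 1.17 ± 1.47 and 2.83 ± 2.14 (exact permutation p = 0.193), with differences of -1.0 within number 1 and -2.0 within numbers 2 and 3, and -1.03 without the vehicle library of number 2. Of 80 regions in the Esr1 locus 4 were recurrent. The strongest recurrent one, chr10:4617987-4619351 in an intron with an AP-1 match, was called in 3 libraries with fulvestrant and 4 without and reached a −log10 p of 21.5 in the vehicle library of number 3. None of the recurrent regions of the 3 loci was called more or less often by the test.

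**Figure D5:**
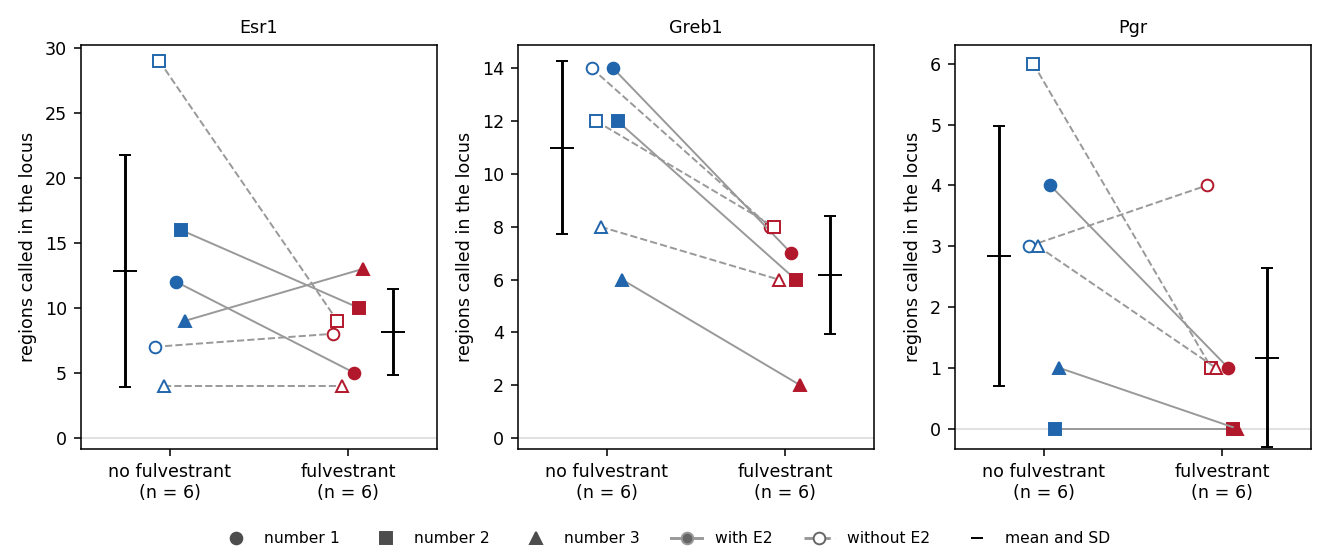
Regions called per library from 50 kb upstream to the end of Esr1, Greb1 and Pgr, without (blue) and with (red) fulvestrant, with lines between libraries of the same replicate number and estrogen level and bars for mean and SD of 6. The count is lower with fulvestrant in 6 of 6 pairs for Greb1, in 3 of 6 for Esr1 and in 4 of 6 for Pgr.

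Gene lists are given by the counts of their promoters, and members named are those with the largest difference in either direction, ties going to more calling libraries and then the alphabet, so that others of equal difference can be unnamed. In none of the 18 lists did a member pass the test in either direction, against 24 of 12111 genes. A split of 6 and 2 does not pass (exact permutation p = 0.0606). Genes called in more than 7 libraries therefore could not pass, in the lists and among the 12111 alike. Among the estrogen receptor and its partners, 14 of 17 genes were called in at least 5 libraries, with 3 in more libraries with fulvestrant, 7 in fewer and 4 in equal numbers, and a median difference of -0.5. The coactivator genes Crebbp (4 libraries with fulvestrant, 6 without), Ncoa2 and Ncoa3 (3 and 5 each) had fewer calls with fulvestrant. Of equal size, and named after their values were seen, were the differences of Gata3 (2 and 4) and, in the other direction, the membrane estrogen receptor gene Gper1 (2 and 0). Among estrogen target genes 9 of 15 reached 5 libraries, with 1 in more, 6 in fewer and 2 in equal numbers and a median of -1. Besides Pgr, Greb1 and the retinoic acid receptor gene Rara had 2 and 5.

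The study's list of 58 genes higher with E2 had 48 in at least 5 libraries, with 6 in more, 31 in fewer and 11 in equal numbers, and a median of -1. Besides Pgr, Ltbp1, a TGF-beta binding matrix protein, and the phosphodiesterase gene Pde8b had 3 and 6 each, and 4 other members had the same difference. Of the 34 genes higher with E2 plus fulvestrant, 33 matched the annotation and 30 reached 5 libraries, with 4 in more, 19 in fewer and 7 in equal numbers, and a median of -1. Gda (2 and 5) and Col4a2 (4 and 6) were among those with the largest differences. The study took both lists from genes shared by RNA-seq, ESR1 ChIP-seq (receptor binding) and ATAC-seq, comparing E2 with E2 plus fulvestrant. The vehicle libraries and those of fulvestrant without E2 had no part in that comparison. Its ATAC-seq part used libraries of this series, so the lists are not independent evidence of a direction. Both medians equal that of all genes.

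The heat shock and glucocorticoid lists had medians of 1 and 0, above that of all genes. Of 15 heat shock and protein folding genes all reached 5 libraries, with 8 in more and 7 in fewer, a median of 1 and a mean of 0.20. Hsf1, the heat shock transcription factor (6 and 3), Atf4 and Hspa8 (5 and 3 each) had more calls with fulvestrant. Hspa1a and Bag3, named after their values were seen, had 2 and 4 each. Glucocorticoid receptor targets had 4 in more, 3 in fewer and 5 in equal numbers of 12 and a median of 0, led by the clock gene Per1 (5 and 3), the metallothionein gene Mt2 (4 and 2) and Cebpd (2 and 4). Early response and AP-1 genes had 4 in more, 8 in fewer and 4 in equal numbers of 16 and a median of -0.5, with Jund and Klf6 at 5 and 3 and Egr2 at 4 and 2.

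The fibrosis and growth lists had medians of -1 or -0.5, beside -1 for all genes. TGF-beta and WNT signalling had 0 in more, 12 in fewer and 4 in equal numbers of 16 and a median of -1, with the inhibitory Smad7 at 3 and 6 and Smad4 and Tcf7l2 at 2 and 5. Extracellular matrix genes had 2 in more, 7 in fewer and 5 in equal numbers of 14 and a median of -0.5, with Ltbp1 at 3 and 6, Col5a1 at 2 and 5 and Lum at 0 and 3. Apoptosis and p53 genes had 0 in more, 9 in fewer and 3 in equal numbers of 12 and a median of -1, with Cdkn1a at 3 and 6, Bid at 3 and 5 and Bcl2 at 2 and 4. Hypoxia response genes had 2 in more, 7 in fewer and 4 in equal numbers of 13 and a median of -1, with Ankrd37 at 4 and 6 and Bnip3 and Higd1a at 2 and 4. Cell cycle genes had 4 in more, 10 in fewer and 2 in equal numbers of 16 and a median of -1, with Cdkn1a again first, Ccnd2 at 5 and 3 and Ccne1 at 3 and 5.

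Cell type markers were counted in the same way, and peak numbers differed between the sides as given above. Fibroblast markers had 1 in more, 12 in fewer and 0 in equal numbers of 13 and a median of -1, with Pdgfra at 2 and 5, Prrx1 at 1 and 4 and Vim at 4 and 6. A library with fulvestrant called 2 to 12 of the 15 fibroblast promoters with a median of 3.5, and one without 1 to 14 with a median of 10. Over all protein-coding genes the median library with fulvestrant called 5660 promoters and the median library without 10719. Of the myogenic markers Acta1 was called in 1 and 5, Ckm in 5 and 3 and Des in 4 and 2 libraries, with a median of 2 over 3 recurrent genes. The other marker lists had at most 3 recurrent genes each, with medians of 0.5 for adipocyte, 0 for endothelial, 1 for immune and -1 for epithelial markers. Members named by the same rule were Cebpa (4 and 3), Fabp4 and Pparg (0 and 1 each), Tek (0 and 2), Cdh5 (3 and 2), Pecam1 (2 and 3), Itgam (0 and 3), Cd3e (1 and 2), Cdh1 and Krt8 (1 and 3 each) and Krt10 (2 and 3). Fewer cells of a type and less accessible chromatin per cell cannot be told apart in such bulk lists.

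Signal strength was compared where every library had a peak. In the 669 regions called in all 12 libraries, the fold enrichment of the strongest peak was set on a log2 scale and each library centred on its median, which ran from 4.46 to 5.79 fold. Many of these regions are repeats: 36.3% passed the 70% self-match threshold, and 53.7% had over 50% of the window marked as repeat. The comparison of signal strength therefore covers such regions more than recurrent regions at large. No region passed limma with Benjamini-Hochberg adjustment (smallest adjusted p = 0.985). At an unadjusted limma p under 0.05, 6 regions, 0.897%, were higher with fulvestrant and 17, 2.54%, lower. The differences were small: 0.02 at the median, -0.25 to 0.28 from the 5th to the 95th percentile, with a median standard error of 0.15, and none beyond 1 on the log2 scale. When 60 regions of simulated data for this comparison were shifted by 1 on the log2 scale, 83.3% were recovered, and by 0.5, 36.7%.

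The region with the smallest p was lower with fulvestrant, chr6:3290723-3291646 in an intron of the lincRNA Gm8579. Its fold enrichment was 3.31, 3.82 and 4.75 (lowest, median and highest) with fulvestrant and 3.93, 5.51 and 6.30 without, a log2 difference of -0.45 ± 0.12 (SE) with an adjusted p of 0.985 in limma. The next 4 lower regions were in an intron of Akr1e1, an aldo-keto reductase gene (-0.46 ± 0.15), in an intron of the pseudogene 6820431F20Rik (-0.35 ± 0.12), and between genes, where the nearest coding genes were Lrriq3 (-0.40 ± 0.14) and Bmpr1b, a BMP receptor gene (-0.42 ± 0.15). Among the higher regions an intron of Akap9, which encodes an anchoring protein of protein kinase A, came first (chr5:4052117-4054531), at 4.20, 5.02 and 5.74 fold with fulvestrant and 3.15, 3.80 and 4.49 without, a log2 difference of 0.38 ± 0.11. The widest of the higher differences, 0.69 ± 0.26, was at an intergenic region (chr14:27528181-27528635) 526 bp from the snoRNA Gm25697, with Ccdc66 as the nearest coding gene and 6.62 to 13.8 fold with fulvestrant and 4.04 to 11.9 without. The others had Gm15319 (0.31 ± 0.12), Msl3l2 (0.37 ± 0.15) and Mef2c (0.38 ± 0.17, in an intron of 2310067P03Rik) as the nearest coding genes. On the centred scale the groups overlapped in each of these 10 regions, and before centring in all but the one in 6820431F20Rik, where the highest library with fulvestrant had 3.23 fold and the lowest without 3.31 fold. The adjusted p by limma was 0.985 in all 10.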

How the data were processed

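ATAC-seq peak lists of 12 libraries (6 with and 6 without fulvestrant, by label) were used, 1 list per library. Per the methods and labels the authors trimmed reads with Trimmomatic 0.39, aligned them to mm10 with Bowtie2, removed duplicates with Picard 2.21.4 and called peaks with MACS2 2.2.71 on each library. Each deposited peak has a fold enrichment (the authors' ratio of pileup to local background, each plus 1), a p-value and a q-value, both as −log10, a score that is the −log10 p on another scale, and a summit. The smallest deposited −log10 p was 2.01, so weak peaks are included, and the lack of a peak does not show closed chromatin.

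Here the 647907 peaks on chromosomes 1 to 19 and X were merged, and annotated with GENCODE M21 on GRCm38 (130588 start sites). Another 10454 peaks, mostly on chromosome Y, were not used. Per its methods the study filtered out blacklisted peaks, and no such filter was added here. Depth was the commonest background that made pileups whole (tolerance 0.002 on the −log10 scale, peaks under 15). Differences were tested by exact permutation of labels (Python 3.11.15, numpy 2.4.6) and, for fold enrichment in regions called in all 12 libraries, by limma 3.58.1 in R 4.3.3, with Benjamini-Hochberg adjustment. Read counts over consensus peaks were not analysed here. Steps were tested on simulated data. The members, gene lists and tests were chosen with earlier results of these data known. Named were the 6 regions and up to 10 genes of each direction past the unadjusted threshold with the largest difference in calling libraries (ties by −log10 p), the 5 regions of each direction with the smallest limma p, the 3 members of each list with the largest difference, and Esr1, Greb1 and Pgr. Alternatives were a replicate block, q of 0.05 or less, 25000 peaks per list, depth as a covariate, 500 bp summit windows, 50% coverage of a region, 1000 bp promoters, quantile normalization, regions called in at least 11 libraries and, chosen after seeing the data, fold enrichment without centring and loci per 10000 regions called, besides replicate numbers apart and each library left out. A few named items are not reported here.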

Additional observations from a re-analysis of the deposited data

Results flagged for a closer look

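Chance flags about 1 in 20 groups, and 32 sets of 6 libraries were looked at. In 4 of them 1 library lay far from the other 5. Among the libraries without fulvestrant, the vehicle library of number 3 had an AP-1 motif in 11.5% of its distal peaks, against 5.16% to 7.08% in the other 5, and a TEAD motif in 14.0%, against 10.4% to 11.4%. The same library had the highest share of peaks with q of 0.05 or less, 46.1%. Among the libraries with fulvestrant, the E2 plus fulvestrant library of number 3 had 2 regions in the Greb1 locus, against 6 to 8 in the other 5, and the fulvestrant library of number 1 had 4 regions in the Pgr locus, against 0 to 1.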

How the results depend on the processing

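The labels' replicate numbers were checked for pairing over recurrent regions. Correlations of same-numbered libraries ran from 0.312 to 0.545 for number 1, from -0.0116 to 0.378 for number 2 and from -0.363 to 0.260 for number 3. The negative values of number 3 were those with its vehicle library. In all, 12 of 18 pairs were over 0.1, and 6 of 12 libraries correlated best with their own number, so the main tests did not take the numbers as pairs. Pairs counted in the Results are matched by label only. With a replicate block (label changes within number and estrogen level) 1 region passed in each direction, and 0 and 2 genes, since only full separation can pass. No tested value other than that of the Greb1 locus passed under any alternative. Counts of regions called more and less often fell to 2 and 2 with q of 0.05 or less, to 6 and 8 with 25000 peaks per list and to 3 and 5 where 50% of a region had to be covered. For genes they were 1 and 1, 8 and 5, and, with 1000 bp promoters, 1 and 8, while within numbers 2 and 3 the genes called less often were 62. Without 1 library the counts ran from 20 to 50 and 58 to 255 for regions and from 3 to 12 and 24 to 88 for genes. Differences that changed sign, all far from passing, were as follows. With q of 0.05 or less, ERE was -0.0011 and SP/KLF -0.119 percentage points, and with 25000 peaks TEAD was 0.0858, CTCF 0.0204 and SP/KLF -0.0422. Within number 1 the share of peaks with q of 0.05 or less was 12.8, the glucocorticoid element 0.0022, AP-1 0.961, TEAD 0.294, CTCF 0.177, list similarity 0.0074 and the interaction -0.303. Within numbers 2 and 3 ERE was -0.0031 and SP/KLF -0.333. Without 1 library the q share ran from -3.83 to 4.72, ERE from -0.0038 to 0.0057, AP-1 from -0.966 to 0.324, TEAD from -0.656 to 0.0811, CTCF from -0.0888 to 0.0544 and SP/KLF from -0.115 to 0.453. Loci were added after the data were seen. Per 10000 regions called the Esr1 difference was 0.123 and the Greb1 difference -0.30 (exact permutation p = 0.424), and the Greb1 difference was -6.5 within number 1 (exact permutation p = 0.333, the smallest that 2 against 2 allow) and -4.0 within numbers 2 and 3 (exact permutation p = 0.20). The causes were not tested.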

Other observations

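The 669 regions called in all 12 libraries were not mainly promoters. A summit within 3000 bp of a start site was found in 183 of them (27.4%), against 50.7% of the 18689 recurrent regions. In 243 of them (36.3%) at least 70% of the bases around the summit matched those at a shift of up to 60 bp, against 11.3% of recurrent regions, and the SP/KLF motif stood in 29 (4.33%), against 30.5%. The CTCF core and the ERE were found in none of the 669. Among the 10 named regions with the smallest limma p, 6 had a window that matched itself at 95.2% or more, such as those in Akap9, Gm8579 and Akr1e1, at 98.7%, 97.6% and 100% at shifts of 44, 36 and 46 bp.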
